A study of Mus musculus with 8 samples.

Results

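The prolactin, STAT5 and ELF5 axis was taken as 9 named genes, Prlr, Jak2, Stat5a, Stat5b, Socs2, Cish, Elf5, Nfib and Id2, out of 21938 protein-coding genes in the annotation. H3K27ac, the acetylated form of histone H3 found at promoters and enhancers in use, was measured by chromatin immunoprecipitation sequencing (ChIP-seq) in 4 mouse breast tumors. The main value was the percent of a gene's window, its body plus 50 kb on either side, that lay inside H3K27ac peaks in each tumor, and all 9 genes had peaks in all 4 tumors. Coverage of cell type markers was read mainly within 10 kb of the start. The 9 windows held 258 of the 91238 regions formed when the overlapping peaks of the 4 tumors were joined.

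Prolactin binds its receptor on mammary epithelial cells and activates the kinase JAK2, which phosphorylates STAT5A and STAT5B. Phosphorylated STAT5 enters the nucleus, binds DNA at palindromic sites and switches on milk protein genes together with inhibitors of its own pathway, among them Socs2 and Cish. ELF5, an ETS family transcription factor, acts with STAT5 to specify the milk-secreting alveolar cells that form in the mammary gland during pregnancy.

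Both groups were Balb/c mice that carried the polyoma middle T oncogene (PyMT), which drives mammary tumors, and lacked Rag1 (Rag1KO), so that they made no T or B cells of their own, and both had been injected with CD4+ T cells. The 2 control tumors were from PyMT;Rag1KO mice and the 2 test tumors from K14-TSLPtg;PyMT;Rag1KO mice, in which the keratin 14 promoter, active in skin and other basal epithelium, drives the cytokine TSLP. The T cells were given at 4 weeks of age, the labels give no age for the tumors profiled, and the numbers 1 and 2 are only names. By title the control pieces were tumor and the test pieces cyst, so tissue state and genotype cannot be told apart. Pieces of whole tumor were used, so that fewer cells of a type and less acetylation per cell cannot be told apart either.

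The lists held 69861 and 67850 peaks in control tumors 1 and 2 and 65763 and 59762 in test tumors 1 and 2, covering between 64.3 and 73.1 Mb, and read depth is unknown. All 12 luminal epithelial markers had a promoter peak in every tumor, and their mean coverage within 10 kb of the start was 45.7% and 44.7% in control and 46.6% and 43.1% in test tumors. At 4 of 6 hepatocyte genes, Alb, Ttr, Serpina1a and Cps1, no peak lay within 10 kb of the start in any tumor. Rag1 and Tslp had no promoter peak in any tumor, which does not test the genotypes because the deleted part and the transgene are not separable in these lists.

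Sequences that the comparisons turn on were read from the mouse assembly GRCm38.p6, whose main chromosomes are those of mm10. The STAT motif TTCNNNGAA reads the same on both strands, and the ETS motif GGAAGT was searched on both strands, so that it appears either as written or as ACTTCC. Capitals mark every match to either motif. The stretches below are on the plus strand, and the 4 longer ones are the middle 300 bases of their regions. At the STAT5-induced inhibitors Cish and Socs2, the motif occurred as close pairs, with at most 20 bp between the matches, inside peaks of all 4 tumors. Nfib also held 2 such pairs, at chr4:82502155-82502180 inside peaks of all 4 tumors and at chr4:82459981-82460005 inside peaks of 3. The printed pairs lie at chr9:107296659-107296678 and chr9:107296764-107296789, in a non-coding stretch of an exon of Cish, and at chr10:95416904-95416923, in an intron of Socs2.
Cish first pair: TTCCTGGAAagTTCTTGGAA
Cish second pair: TTCTAGGAAgatgaggcTTCCGGGAA
Socs2 pair: TTCCAGGAActTTCCAGGAA
The next stretches come from test-only regions, shared by the test tumors and missing from the control tumors, near Elf5 (chr2:103397383-103397682) and near Id2 (chr12:25108994-25109293), both between genes. A region near Jak2 that only the control tumors shared (chr19:29236894-29237193) is also between genes, and the region whose width differed most between groups at Prlr (chr15:10338888-10339187) is in an intron.
Elf5 upstream, test tumors: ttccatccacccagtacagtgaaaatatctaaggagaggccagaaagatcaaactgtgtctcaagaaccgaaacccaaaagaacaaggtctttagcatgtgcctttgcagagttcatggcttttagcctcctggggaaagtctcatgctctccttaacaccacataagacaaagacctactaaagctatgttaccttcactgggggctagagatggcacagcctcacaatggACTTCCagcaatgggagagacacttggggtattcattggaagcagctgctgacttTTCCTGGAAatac
Id2 upstream, test tumors: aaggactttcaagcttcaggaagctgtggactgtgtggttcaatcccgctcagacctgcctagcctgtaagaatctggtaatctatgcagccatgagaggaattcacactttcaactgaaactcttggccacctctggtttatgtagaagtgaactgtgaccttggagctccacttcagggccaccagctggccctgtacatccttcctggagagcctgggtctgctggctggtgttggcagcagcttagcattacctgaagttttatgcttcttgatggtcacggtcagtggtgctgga
Jak2 upstream, control tumors: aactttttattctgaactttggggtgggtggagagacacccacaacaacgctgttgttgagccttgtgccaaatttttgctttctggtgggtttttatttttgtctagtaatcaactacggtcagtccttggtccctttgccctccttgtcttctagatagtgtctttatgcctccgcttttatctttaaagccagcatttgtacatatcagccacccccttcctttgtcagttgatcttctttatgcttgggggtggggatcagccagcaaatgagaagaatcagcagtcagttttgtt
Prlr intron, widest in test tumors: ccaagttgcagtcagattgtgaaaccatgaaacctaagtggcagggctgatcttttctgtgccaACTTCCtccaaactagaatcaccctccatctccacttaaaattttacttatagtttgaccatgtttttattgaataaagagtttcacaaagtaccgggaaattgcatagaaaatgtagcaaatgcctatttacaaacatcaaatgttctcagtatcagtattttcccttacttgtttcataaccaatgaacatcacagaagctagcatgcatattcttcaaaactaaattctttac

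The first question was whether acetylation along the axis differed between tumors grown with and without the TSLP transgene. Prlr and Jak2, the receptor and its kinase, were the 2 of 9 genes with higher coverage in both test tumors than in both control tumors, against 17.3% of the 18693 covered protein-coding genes. None of the 9 had both control tumors above both test tumors (0 of 9), against 13.0% of covered genes, and in the other 7 the groups overlapped. The mean was higher in test tumors at 7 of 9 genes, against 51.4% of covered genes, and the median difference was 0.66 percentage points, beside 0.02 over all covered genes. That median was -1.01 without control tumor 2 and -1.99 without test tumor 1. With 2 tumors against 2, a two-sided exact permutation test cannot give a p below 0.333, so no single gene could pass 0.05.

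**Figure D1:**
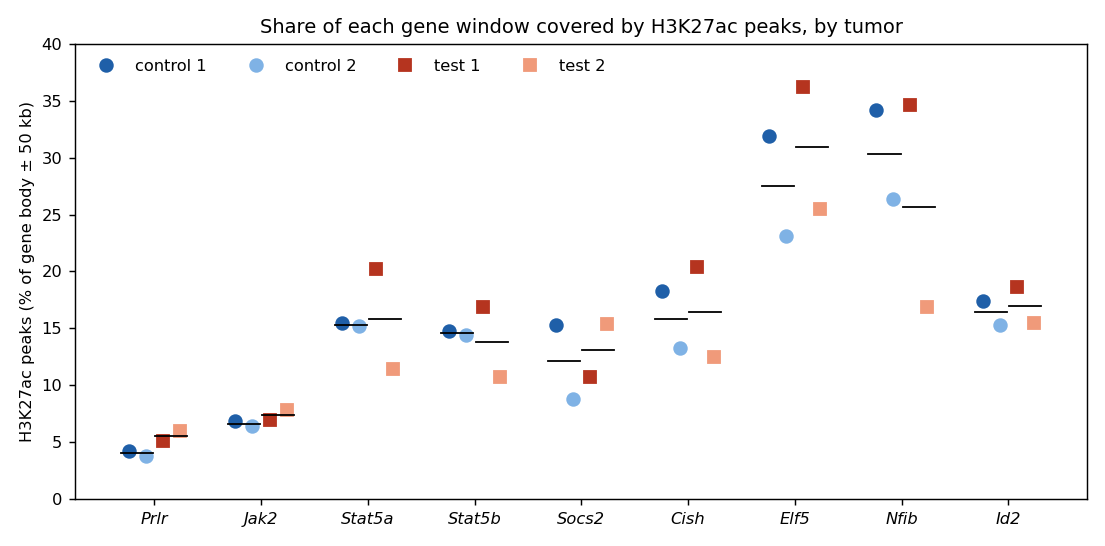
Percent of each gene window (gene body plus 50 kb on either side) covered by H3K27ac peaks. Circles are the 2 control tumors, squares the 2 test tumors, and black lines the group means. The groups are apart at Prlr and Jak2 and overlap elsewhere, and control tumor 1 and test tumor 1 lie above the other tumors at 6 of 9 genes.

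Prlr, the prolactin receptor gene (chr15:10177238-10349180, plus strand), was covered over 4.24% and 3.81% of its window in control tumors 1 and 2 and over 5.05% and 5.98% in test tumors 1 and 2. Both test tumors lay above both control tumors, with means of 5.52% ± 0.658 (SD, n = 2) and 4.03% ± 0.304 (SD, n = 2) and a difference of 1.49 percentage points. The difference kept its sign under all 10 alternative settings, between 1.03 and 1.99. Because the groups did not overlap, the settings that leave out 1 tumor could not have changed that sign. Peak numbers were 12 and 11 in control and 13 and 14 in test tumors.

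The wider coverage at Prlr came mainly from 2 intronic regions. The region centered 161.8 kb from the start (chr15:10337506-10340570), which also overlaps the gene model Gm21973, covered 710 bp in control tumor 1, none in control tumor 2 (0 bp), 1226 bp in test tumor 1 and 3065 bp in test tumor 2. A region 15.3 kb from the start (chr15:10190678-10194376), the widest in the window at 3699 bp, covered 2524 and 1960 bp in control and 2614 and 3699 bp in test tumors. At both regions the test tumors were the wider ones, and test tumor 2 was the widest. The start region (chr15:10176965-10179228) differed little and without a group order, with 1998, 1920, 1784 and 2165 bp in control 1, control 2, test 1 and test 2.

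Prlr has several annotated starts, and the same ones were acetylated in every tumor. The starts within 0.5 kb of the gene's 5′ end and the one 72.3 kb inside had a peak within 1 kb in all 4 tumors, 6 of 10 distinct starts. The other 4, at 36.2, 38.7, 46.7 and 136.9 kb, had none in any tumor. Of 16 regions in the window, 6 were present in all 4 tumors, 4 in 3 tumors and 6 in 1 tumor, of which 4 were in test tumor 2 alone.

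**Figure D2:**
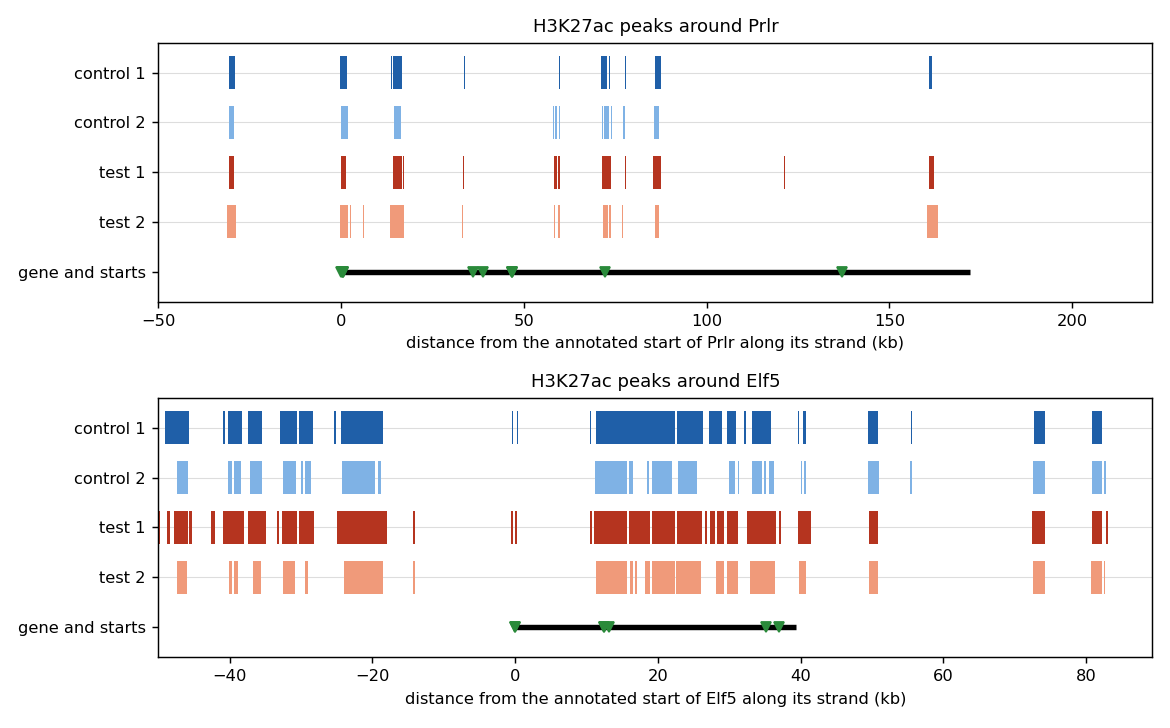
H3K27ac peaks in each tumor (colored bars) around Prlr and Elf5, by distance in kb from the annotated gene start. The black line is the gene and green triangles are annotated transcript starts. At Prlr the bar near 161.8 kb is absent from control tumor 2 and widest in test tumor 2, and at Elf5 the broad acetylated block begins at the inner starts near 12.4 kb rather than at 0.

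Jak2, the kinase bound to the prolactin receptor (chr19:29251828-29313080, plus strand), had 6.83% and 6.41% coverage in control and 6.97% and 7.78% in test tumors. The groups did not overlap, but control tumor 1 and test tumor 1 were close, and the groups overlapped with 10 kb windows, with 100 kb windows and with peaks within 1 kb joined. The means were 6.62% ± 0.297 in control and 7.37% ± 0.574 in test tumors (SD, n = 2 each), and their difference of 0.76 percentage points ranged from 0.07 to 1.67 over the alternative settings. The window held 10 regions, of which 6 were in all 4 tumors, including both regions within 1 kb of a Jak2 start. The wider of these (chr19:29251970-29256029) covered 3234 and 3505 bp in control and 3241 and 3504 bp in test tumors, so the groups overlapped there. The other, just upstream of the start (chr19:29250405-29251505), covered 813 and 947 bp in control and 957 and 1101 bp in test tumors, with both test tumors wider. An intronic region 13.6 kb from the start covered 2169 and 2141 bp in control and 2040 and 2714 bp in test tumors.

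The control-only region upstream of Jak2, shown above, lay 14.8 kb before the start and was 393 bp wide, with 393 and 310 bp of peak in the control tumors (control-only). It held neither motif in the stretch printed. At Jak2 the order of coverage and this region thus ran in opposite directions.

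The genes for both STAT5 proteins lie side by side on chromosome 11 in opposite orientations, and their windows share 91.4 kb and 12 regions, so they are not independent. Stat5a (chr11:100859351-100885169, plus strand) had 15.5% and 15.2% coverage in control and 20.2% and 11.4% in test tumors. Stat5b (chr11:100780731-100850724, minus strand) had 14.8% and 14.4% in control and 16.9% and 10.7% in test tumors. In both windows the 2 control tumors lay between test tumor 1, the highest, and test tumor 2, the lowest. The differences were 0.50 and -0.82 percentage points, beside SDs over the test tumors of 6.22 and 4.41. Without test tumor 1 they were -3.90 and -3.94, and without test tumor 2 they were 4.90 and 2.31.

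The Stat5a start lay in a 4373 bp region (chr11:100857384-100861756) that was widest in the window, with 3658, 3186, 4373 and 2742 bp of peak in control 1, control 2, test 1 and test 2. A second region 3.6 kb before the Stat5a start, between both genes (chr11:100854357-100857212), covered 2681, 2688, 2802 and 2253 bp. The Stat5b start region (chr11:100848602-100851543) covered 2506, 1934, 2625 and 1387 bp, and the widest in its window besides that of Stat5a was a 3719 bp region at Rab5c. Another annotated Stat5b start, 28.2 kb inside the gene, lay in a region (chr11:100821708-100823375) with 1618, 1576, 1604 and 1254 bp. These starts were acetylated in all 4 tumors, and at each of them test tumor 1 was wider than test tumor 2.

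Of the 11 regions in the 9 windows that were control-only or test-only, 4 lay in the neighboring gene Stat3, which encodes the STAT protein that acts during mammary involution. In the Stat5a window, 3 test-only regions of 391, 333 and 815 bp (chr11:100912895-100913285, chr11:100916657-100916989 and chr11:100926892-100927706) and 1 control-only region of 235 bp (chr11:100912428-100912662) were within Stat3. The 815 bp region covered 229 bp in test tumor 1 and all 815 bp in test tumor 2. The Stat3 window as a whole had 18.8% and 18.4% coverage in control and 22.9% and 13.9% in test tumors, the same order of tumors as at Stat5a. In the Stat5b window, a 293 bp control-only region (chr11:100730707-100730999) lay at an annotated start of Rab5c.

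**Figure D3:**
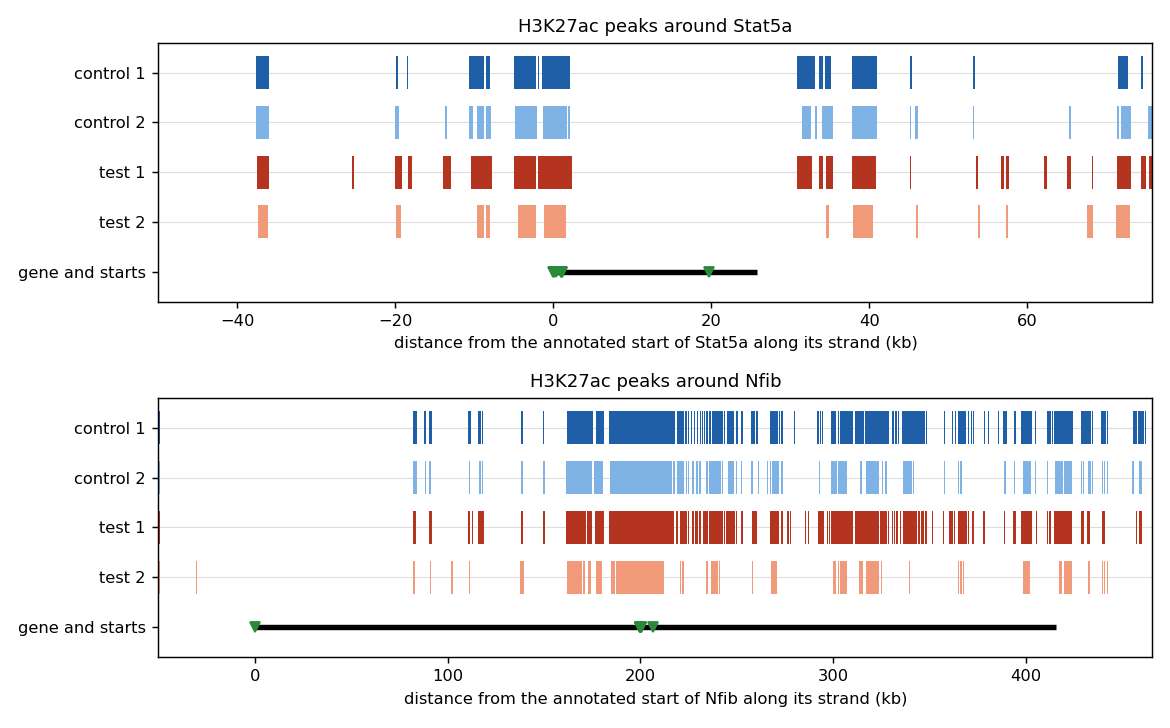
H3K27ac peaks in each tumor around Stat5a (with Stat5b to its left and Stat3 to its right) and Nfib, by distance in kb from the annotated gene start along its strand. The black line is the gene and green triangles are annotated transcript starts. At Nfib all tumors share the block around the inner starts near 200.4 kb, and test tumor 2 has the fewest peaks elsewhere.

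Socs2 and Cish encode SH2 proteins that dampen cytokine receptor signaling and are themselves induced by STAT5. Socs2 (chr10:95385362-95417180, minus strand) had 15.3% and 8.80% coverage in control and 10.7% and 15.4% in test tumors. Cish (chr9:107296026-107302784, plus strand) had 18.3% and 13.3% in control and 20.4% and 12.5% in test tumors. The groups overlapped at both, with differences of 1.00 and 0.66 percentage points. Without control tumor 2 these were -2.26 and -1.87. Both starts had peaks in all 4 tumors. The tumors were ordered differently, however, since control tumor 1 paired with test tumor 2 at Socs2 and with test tumor 1 at Cish.

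That contrast held region by region. Of the 9 Socs2 regions present in all 4 tumors, control tumor 1 and test tumor 2 were both wider than the other tumors at 8 (88.9%), against 12.7% of all 34804 such regions. The start region (chr10:95413006-95417884) covered 4775 and 4240 bp in control tumor 1 and test tumor 2 but 3112 and 3445 bp in control tumor 2 and test tumor 1. Of the 8 Cish regions in all 4 tumors, control tumor 1 and test tumor 1 were both wider at 7 (87.5%), against 26.1% of all such regions. The Cish start region (chr9:107295793-107300230) covered 4238, 3878, 4438 and 3936 bp in control 1, control 2, test 1 and test 2. These orders were chosen after the values were seen and carry no test.

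The printed STAT pairs lay 638 to 760 bp inside the annotated Cish start and 260 to 272 bp inside the Socs2 start, with 2 bp between the matches of the first Cish pair and of the Socs2 pair. Both genes have further annotated starts. The first Cish pair lies before one 0.7 kb inside, and the Socs2 pair before one 0.3 kb inside. Peak edges did not separate the tumors there, since every match of these pairs was inside a peak of each tumor. Cish regions held 18 matches, or 0.713 per kb, the highest of the 9 genes, and Socs2 regions held 13, or 0.567 per kb, beside 0.342 per kb over all joined regions. Jak2 (0.540 per kb), Prlr (0.438) and Nfib (0.386) were also above that rate, and Stat5a (0.304), Elf5 (0.293) and Id2 (0.289) were below it. Stat5b regions had the lowest rate, 0.222 per kb. Counting shared regions once, the 9 windows held 162 matches, of which 76 were inside peaks of all 4 tumors. The same share over all joined regions was not computed.

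**Figure D4:**
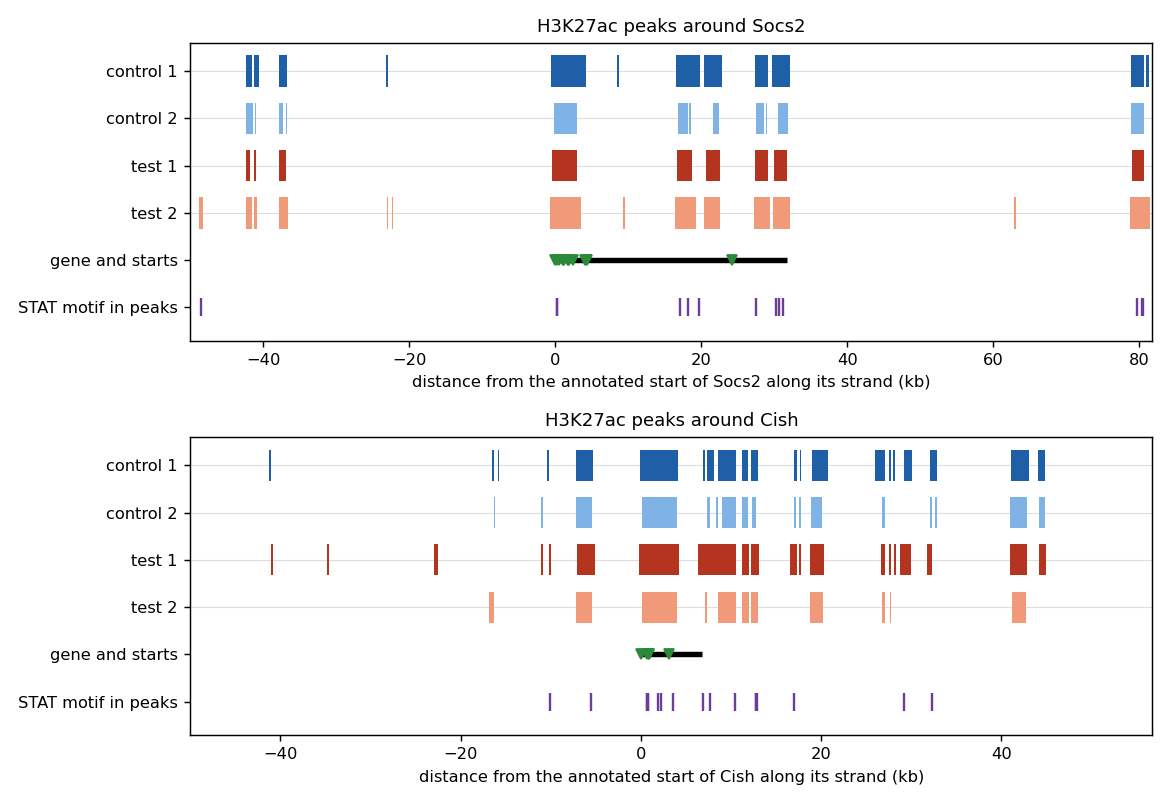
H3K27ac peaks in each tumor around Socs2 and Cish, by distance in kb from the annotated gene start along its strand. The black line is the gene, green triangles are annotated transcript starts, and purple ticks are TTCNNNGAA matches inside the joined regions. Control tumor 1 and test tumor 2 have the wider bars at Socs2, control tumor 1 and test tumor 1 at Cish.

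As a set, the regions did not stand out in these motifs. In the middle 300 bases, 30 of 258 regions held TTCNNNGAA (11.6%, against 9.98% of all regions) and 55 held GGAAGT on either strand (21.3% against 21.6%). The palindromic NFI motif was found in 0 of 258 and in 0.0373% of all regions. Median GC content was 46.2% against 47.7%. In the 250 bases before a RefSeq start, TTCNNNGAA occurred in 7.02% and GGAAGT in 19.7% of 32851 promoters. The printed test-only stretch near Elf5 held 1 match to each of the STAT and ETS motifs, which did not overlap each other. The STAT match was inside the peak of test tumor 1 only, since the peak of test tumor 2 ended before it.

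Elf5 (chr2:103411688-103450989, plus strand) had the highest mean coverage of the 9 windows, at percentile 98.9 among covered protein-coding genes. Its coverage was 31.9% and 23.1% in control and 36.2% and 25.5% in test tumors. Test tumor 1 was highest and control tumor 2 lowest, and control tumor 1 lay above test tumor 2, so the groups overlapped. The difference of 3.33 percentage points, from means of 30.9% ± 7.52 and 27.5% ± 6.24 (SD, n = 2 each), was smaller than either SD. It was -1.08 without control tumor 2 and -1.99 without test tumor 1.

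The acetylated Elf5 promoter was an inner one. At the annotated 5′ end only narrow peaks were found, in control tumor 1 and test tumor 1, and none in control tumor 2 or test tumor 2. The starts 12.4 and 13.1 kb inside, from which protein-coding transcripts also begin, lay in a region of 11321 bp (chr2:103422762-103434082) with 11080, 7973, 10801 and 8973 bp of peak in control 1, control 2, test 1 and test 2. Of 7 distinct Elf5 starts, 4 had a peak within 1 kb in all 4 tumors. All tumors thus had the inner promoter acetylated over several kb.

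Upstream, a 6936 bp region 21.5 kb before the 5′ end (chr2:103386745-103393680) was present in all 4 tumors, with 5883, 5119, 6936 and 5425 bp. The test-only region printed above lay 14.2 kb upstream, was 319 bp wide and covered 319 and 275 bp in test tumors 1 and 2. Within the gene, a region 34.5 kb from the 5′ end (chr2:103444168-103448271) covered 2668 and 2314 bp in control but 4104 and 3444 bp in test tumors. Just past its end, a region 40.5 kb from the 5′ end covered 584 and 425 bp in control and 1857 and 873 bp in test tumors. Both test tumors were thus wider than both control tumors at the 3′ end of Elf5, as at 5 of its 14 regions present in all 4 tumors (35.7%, against 19.1% of all such regions). The single control-only region, 280 bp wide (chr2:103466971-103467250), overlapped a coding exon of the neighboring gene Cat.

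Nfib encodes a nuclear factor I protein that cooperates with STAT5 at milk protein genes. Its window (gene at chr4:82290173-82705750, minus strand) was the longest at 516 kb and was covered over 34.2% and 26.4% in control and 34.6% and 16.9% in test tumors. Control tumor 1 and test tumor 1 were within 1 percentage point of each other, whereas test tumor 2 was by far the lowest. The difference of -4.63 percentage points rested on test tumor 2 and was 4.22 without it. Peak numbers were 107 and 93 in control and 101 and 70 in test tumors.

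The Nfib promoter showed the same kind of displacement as that of Elf5. The annotated 5′ end, the start of a single transcript, had no peak in any tumor, while the other 7 of 8 distinct starts, between 200.0 and 206.4 kb inside, had peaks in all 4. The region that holds them, the widest of the 258 at 13894 bp (chr4:82492530-82506423), covered 13864, 13782, 13767 and 13105 bp in control 1, control 2, test 1 and test 2. It was thus nearly equal in all tumors, test tumor 2 included. The lower coverage of test tumor 2 came from flanking regions, such as one 340.3 kb from the 5′ end with 9093, 5053, 8411 and 1257 bp and one at 215.6 kb with 4294, 3808, 3837 and 161 bp. Of the 122 regions, 56 (45.9%) were absent from both control tumor 2 and test tumor 2, against 21.9% of all regions. The 2 control-only regions were 823 bp (chr4:82270864-82271686) and 209 bp (chr4:82300747-82300955) wide.

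Id2 encodes an inhibitor of basic helix-loop-helix factors that mammary alveolar development requires. Id2 (chr12:25093799-25097140, minus strand) had 17.4% and 15.3% coverage in control and 18.6% and 15.5% in test tumors. The groups overlapped, with a difference of 0.66 percentage points (-0.39 without control tumor 2 and -0.87 without test tumor 1). A 9735 bp region over the whole gene (chr12:25092015-25101749) covered 9513, 8873, 9430 and 9333 bp, and a 4010 bp region 46.2 kb upstream covered 4010, 3379, 3853 and 3788 bp. Both were close to equal in all 4 tumors. The test-only region printed above, 12.0 kb upstream and 317 bp wide, covered 317 and 239 bp in the test tumors and held neither motif in the stretch shown.

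At most genes of the axis the tumors did not sort by group. Control tumor 1 and test tumor 1 were both above the other 2 tumors at 6 of 9 genes (66.7%, against 25.3% of covered genes), at Stat5a, Stat5b, Elf5, Cish, Nfib and Id2. Of the 93 regions present in all 4 tumors, control tumor 1 and test tumor 1 were both wider at 46 (49.5%, against 26.1%), both test tumors at 13 of 93 (against 19.1% of all such regions) and both control tumors at 5 (5.38%, against 13.3%). Nfib contributed 21 of those 46 regions. Members share windows and neighborhoods, so these are descriptions.

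Within 10 kb of the start, 6 of 10 myoepithelial markers had control tumor 1 and test tumor 1 above the other 2 tumors. Mylk, Tagln, Cdh3 and Trp63 did not. The same order held at 4 of 12 luminal, 3 of 10 fibroblast and 2 of 10 myeloid markers. It held at 1 of 9 T cell, 1 of 10 adipocyte and 0 of 10 endothelial markers. The share over all genes was not computed for this measure. Over the 50 kb windows, only Krt5, Krt14 and Mylk of the myoepithelial markers had this order. Summed over the 10 genes, the percent of the 10 kb on either side of the start that was covered was 56.2 and 25.0 in control and 63.4 and 26.8 in test tumors. Krt5 had 6.88% and 1.97% in control and 15.9% and 5.84% in test tumors, and without it the sums were 49.3 and 23.0 against 47.5 and 20.9. Acta2 had 10.8% and 3.77% against 8.58% and 2.01%, and a promoter peak was present at 6 and 3 of the 10 genes in control and at 5 and 0 in test tumors. Trp63, which defines these cells, was at 0 within 10 kb of its annotated 5′ end in all 4 tumors, but its whole window was covered 11.5% and 10.9% in control and 9.69% and 3.79% in test tumors. For the lists that follow, a gene at 0 is likewise one with no peak within 10 kb of the start, and most of these had some coverage elsewhere in their window. Sums for fibroblast markers were 52.5 and 32.4 in control and 31.4 and 9.09 in test tumors, with Lum, Fap and Thy1 at 0 throughout. Without Dcn the fibroblast sums were 48.2 and 24.7 against 31.4 and 9.09, so the groups overlapped. Endothelial sums were 32.3 and 39.0 against 10.2 and 6.53, with Tie1, Vwf and Erg at 0, and myeloid sums 139 and 138 against 119 and 78.1, with Adgre1 at 0. T cell sums over 9 genes were 9.59 and 10.2 against 7.47 and 1.89, with Zap70 at 0, but 7.12 and 6.33 against 7.47 and 1.89 without Lck. Adipocyte sums, with Adipoq, Lep, Fabp4 and Pparg at 0, were 58.8 and 65.3 against 76.5 and 46.2. The part of other cell types in the coverage of the 9 genes was not tested.

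Presence and absence gave few differences between groups. Of the 258 regions, 93 were present in all 4 tumors (36.0%, against 38.1% of all regions), 6 were control-only (2.33%, against 3.41%) and 5 were test-only (1.94%, against 1.47%). These shares were near the background, and all 11 group-specific regions were at most 823 bp wide. Regions in all 4 tumors had a median width of 2522 bp, those in 1 tumor of 206 bp. A peak within 1 kb of the annotated 5′ end was found in all 4 tumors at 7 of 9 genes, all but Elf5 and Nfib, against 49.6% of all protein-coding genes.

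**Figure D5:**
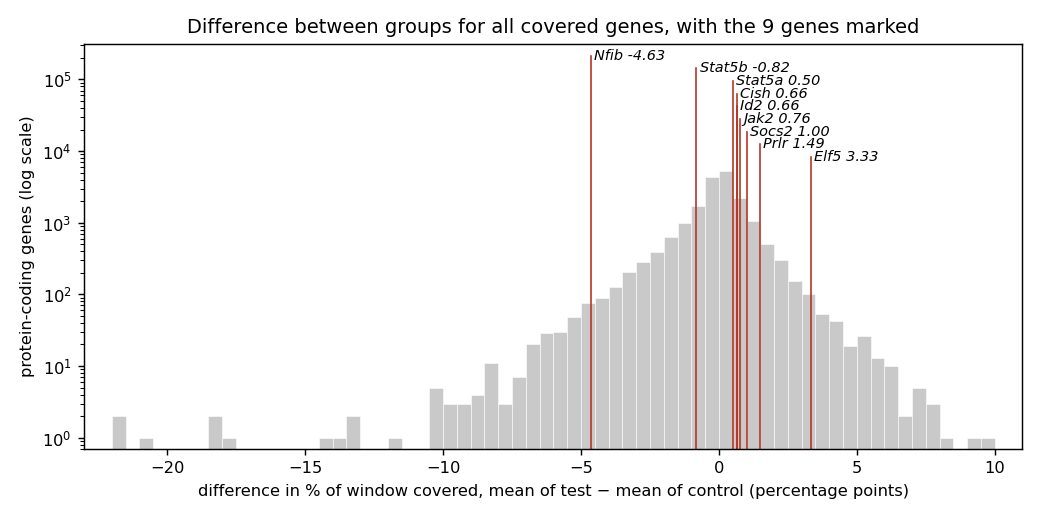
Difference in percent of window covered, mean of test minus mean of control tumors, for all 18693 covered protein-coding genes (gray bars, bins of 0.5 percentage points, log scale on the vertical axis). Red lines mark the 9 genes, which run from -4.63 at Nfib to 3.33 at Elf5 and lie inside the range of all genes.

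Other genes of the pathway were compared by 5 lists with 65 genes in all. Both test tumors were above both control tumors at 6, and both control tumors above both test tumors at 11, against 17.3% and 13.0% of all covered genes, with a median difference of -0.21 percentage points. Among kinases and STATs, Jak1, which signals for many cytokine receptors, had 7.62% and 2.72% coverage in control and 9.90% and 7.73% in test tumors, and no gene of that list of 8 had both control tumors above. Among 14 ligands and cytokine receptors, 6 had both control tumors above (against 13.0% of covered genes) and 2 had both test tumors above (against 17.3%). Of these 6, Il3ra, Il7r and Erbb4 had little coverage, at most 0.948%, 0.285% and 0.0801% in any tumor. Csf2rb, which encodes the beta chain shared by GM-CSF and related receptors, had 5.16% and 6.14% against 5.15% and 3.45%, and its mouse paralog Csf2rb2 had 5.40% and 4.60% against 2.57% and 0.773%. Control tumor 1 and test tumor 1 were thus almost equal at Csf2rb.

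Among 11 paralogs of the transcription factors, Ehf, an ETS factor related to Elf5, had 37.8% and 34.6% in control and 39.1% and 39.2% in test tumors. Id3, a relative of Id2, had the largest difference, with 11.5% and 16.4% against 6.81% and 4.27%, or -8.40 percentage points. Of 14 inhibitors and phosphatases, Ptpn6, which encodes the phosphatase SHP-1, had 22.4% and 20.8% against 24.3% and 24.4%, and Pias1 had 3.52% and 2.61% against 3.96% and 3.69%. Socs1, an inhibitor of JAK kinases, had 2.75% and 3.74% against 2.59% and 2.40%. Of 18 milk and alveolar targets, none had both test tumors above (0 of 18, against 17.3% of covered genes) and 2 had both control tumors above (against 13.0%), while the mean was higher in test tumors at 10 of 18 (against 51.4%) and the median difference was 0.07 percentage points. Cebpb, a transcription factor of mammary differentiation, had both control tumors above, at 47.1% and 46.4% against 44.4% and 40.6%.

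Over the 4 tumors, the genes with coverage most like that of Prlr were Bcl9 (4.13%, 3.65%, 5.18% and 5.82% in control 1, control 2, test 1 and test 2) and Lnx1, at Euclidean distances of 0.283 and 0.340 percentage points. The gene most like Elf5 was Ggt6 (29.6%, 24.8%, 33.7% and 25.8%), at 3.76 percentage points.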

How the data were processed

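The study immunoprecipitated H3K27ac chromatin from tumor pieces, and per the labels and its methods the authors aligned reads to mm10 with BWA and called peaks in each tumor with MACS2 against matched input. Versions are not given in the sources used here. The deposited lists hold peak positions in base pairs, cleaned and merged, with no score or signal, so width and presence were the only measures, read depth is unknown, and deeper sequencing can widen peaks. Inputs and RNA were not analysed here.

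Windows were gene bodies plus 50 kb (GENCODE M21, GRCm38), and covered genes had a peak in any tumor. Overlapping or touching peaks of the 4 tumors were joined, and 1 bp of overlap counted as present. Control-only and test-only regions were shared by the tumors of that group and missing from the other group. Promoters were 1 kb either side of the 5′ end. Percentages, orders and the exact permutation test were computed with Python 3.11.15, numpy 2.4.6 and scipy 1.17.1, and the interval arithmetic was tested on simulated data. The genes and lists were chosen with earlier results of these data known. Named pathway genes were, in each direction, up to 5 with the largest difference among those whose groups did not overlap. Printed sequences were chosen after their values were seen. The study states that its tumors came from separate mice. A few genes that these rules named are not reported here.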

Additional observations from a re-analysis of the deposited data

How the results depend on the processing

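Alternatives were windows of 10 or 100 kb, peaks of at least 1 kb, equal peak numbers, scaling to genome coverage, joining of peaks within 1 kb, a stricter overlap, and leaving out each tumor. The count of 2 genes with both test tumors above was 1 with 10 kb windows, 1 with 100 kb windows and 1 with joined peaks, where Prlr remained and Jak2 overlapped, and 2 to 8 without a tumor (8 without test tumor 2, 5 without control tumor 1). The count of 0 with both control tumors above was 0 to 4 without a tumor (4 without test tumor 1). Control-only regions, 6, were 1 with 10 kb windows, 1 with peaks of at least 1 kb, 3 with equal peak numbers, and 9 to 38 without a tumor. Test-only regions, 5, were 0 with 10 kb windows, 1 with peaks of at least 1 kb, and 6 to 42 without a tumor. Leaving out a tumor leaves 1 in its group, which makes it easier for groups not to overlap and for regions to count as group-specific. The gene and region counts without a tumor can therefore rise for that reason alone. No share over all genes or regions was computed for these settings, so those counts show nothing specific to the axis. The ratio of peak numbers, test over control, was 0.902, and 1.07 with peaks of at least 1 kb. It ran from 0.779 without test tumor 1 to 1.02 without test tumor 2. The median difference ran from -1.99 to 2.31 without a tumor. Prlr and Jak2 kept their sign in all 10 settings, while the other 7 genes changed sign in at least 1. At Prlr and Jak2, where the groups did not overlap, leaving out 1 tumor could not change the sign, so this contrast is partly automatic. No paired analysis was possible because the tumor numbers 1 and 2 were given here in the order of the samples and tie no animals together.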
